A study of Mus musculus with 12 samples.

Results

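The comparison described here is ageing in mice that lack Hoxa9: 3 libraries of activated satellite cells from old Hoxa9 knockout mice (22 to 28 months) were set against 3 from young Hoxa9 knockout mice (3 to 4 months). The 6 libraries were taken by the genotype and age in the sample labels, out of 12 in the series, and no measured value was used to choose them. The other 6 libraries hold the same ages in wild-type mice, with 3 libraries per age. All 4 groups were of strain C57BL/6, and in every group the hindlimb muscles had been injured by injecting barium chloride (50 µl at 1.2%) at about 20 sites. Cells were isolated 3 days later and profiled by RNA-seq. The labels do not say which part of Hoxa9 was deleted, whether the deletion is restricted to a tissue, how many animals gave a library, or how cells were sorted. The p-values below therefore measure only the spread between these libraries, which may be technical.

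Satellite cells are the stem cells of skeletal muscle; they lie quiescent beneath the basement membrane of the fibre, enter the cell cycle after injury, and then differentiate and fuse or return to quiescence. In old muscle this response is known to be slower and less complete. Hoxa9 encodes a homeobox transcription factor that patterns the posterior body and limbs, and the knockout libraries at 2 ages allow the change with age to be measured where this factor is missing.

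Hoxa9 itself stood at 7.21, 5.52 and 6.46 CPM (reads of a gene relative to all reads in genes of its library, after scaling) in the young knockout libraries and at 6.46, 4.55 and 6.39 CPM in the old. In wild type it stood at 7.96, 11.4 and 11.5 CPM in young and 14.7, 15.7 and 22.5 CPM in old libraries. All 6 knockout libraries thus lay below all 6 wild-type libraries, but none was free of Hoxa9 reads (22 to 87 per knockout library), and the labels leave unsaid whether these reads lie outside the deleted part. With age, Hoxa9 differed by -0.18 ± 0.26 on the log2 scale in knockout (old minus young, ± standard error; adjusted p = 0.87 in edgeR's quasi-likelihood test). Pax7, a satellite cell marker and transcription factor, was present in every knockout library, at 238, 214 and 243 CPM in young and 231, 169 and 204 CPM in old. Other satellite cell markers, named here like Pax7 to check the cell type and chosen with their values known, were also abundant: M-cadherin (Cdh15) stood at 683 to 998 CPM and integrin alpha 7 (Itga7) at 972 to 1337 CPM across the 6 libraries.

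The knockout libraries held 4193433 to 14713194 reads in genes, and several differed in ways that touch the results. Y-linked reads reached 235 and 298 CPM in old replicates 2 and 3, with Xist at 17.1 and 34.9 CPM, whereas young libraries held at most 0.257 CPM of Y-linked reads and 614 to 2030 CPM of Xist. Old replicate 1 held 9.46 CPM of Y-linked reads, and wild-type libraries held at most 4.55 CPM. The labels give no sex, and sex and age cannot be fully told apart here. Lars2, the mitochondrial leucyl-tRNA synthetase gene, took 0.484% to 25% of gene counts, most in old replicate 3, where 70.8% of uniquely aligned reads lay outside genes. Reads that aligned to several places numbered 1.27 to 7.54 per read in genes over the knockout libraries, again most in old replicate 3. Whether the reads counted to Lars2 come from its transcript was not tested. Young replicate 3 stood apart from the other 5 on the first principal component (41.8% of the variance). Its immediate early genes summed to 19200 CPM against 6890 to 10900 CPM in the others. Median spread among replicates over 11812 genes was 0.269 (SD of log2 CPM) in young and 0.199 in old knockout, against 0.201 and 0.156 in young and old wild type. The genotypes also differed as whole sets of libraries. Lars2 took at most 0.11% of gene counts in wild type. Ttr, the transthyretin gene, had 0 reads in every knockout library and 1038 to 27636 in wild-type libraries. Levels relative to each gene's mean over all libraries correlated with GC content at -0.525 to -0.125 in knockout and 0.226 to 0.471 in wild type (Spearman). Such differences cannot be told apart from genotype where the 2 are compared.

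In old cells without Hoxa9, 2 genes rose past the threshold, Eno3 and Klhl30, and none fell past it. Eno3 encodes beta-enolase, the muscle form of a glycolytic enzyme, and Klhl30 belongs to the kelch-like family. These were 2 of 13540 tested genes (0.0148% called, at a Benjamini-Hochberg adjusted p under 0.05 in edgeR's quasi-likelihood test). At an unadjusted p under 0.05, 1316 genes passed (9.72%), 734 higher (5.42%) and 582 lower (4.3%) in old cells. Old and young libraries did not overlap for 1569 genes (11.6%), 862 of them higher in old (6.37%) and 707 lower (5.22%). The median log2 fold change over all tested genes was -0.01.

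Eno3 was read at 77.6, 71.8 and 50.9 CPM in young knockout and at 219, 218 and 166 CPM in old knockout. Every old library thus held more than 2-fold the level of every young library. Its log2 fold change was 1.58 ± 0.22 (SE; 66.8 ± 14.0 against 201 ± 30.3 CPM, SD, n = 3; adjusted p = 0.0368, edgeR, Benjamini-Hochberg). Klhl30 stood at 16.2, 18.9 and 16.4 CPM in young and 33.4, 49.7 and 39.5 CPM in old knockout. The young libraries lay within 3 CPM of each other, and all old libraries lay well above them. Its log2 fold change was 1.26 ± 0.17 (SE; adjusted p = 0.0368, edgeR). In wild type the same genes had values of 0.76 ± 0.21 (adjusted p = 0.104) and 0.58 ± 0.16 (adjusted p = 0.11, edgeR) and did not pass. The difference between the genotypes did not pass either: it was 0.82 ± 0.30 for Eno3 (adjusted p = 0.414) and 0.68 ± 0.24 for Klhl30 (adjusted p = 0.398, edgeR).

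Both calls lay close to the threshold, and each was lost when any of several single libraries was left out. They also rested on the spread shared with wild type. Fitted on the 6 knockout libraries alone, Eno3 stood at 1.56 and Klhl30 at 1.23, each with an adjusted p of 0.529 (edgeR). Without young replicate 1, young replicate 2 or old replicate 2, Eno3 kept a log2 fold change of 1.71, 1.61 and 1.52 with adjusted p-values of 0.0602, 0.122 and 0.116. Klhl30 then gave 1.21, 1.31 and 1.08 with 0.0632, 0.122 and 0.116, and 1.25 with 0.11 without old replicate 3. Without old replicates 2 and 3, which are high in Y-linked reads, a single old library is left and its spread is assumed to be that of the other groups; then Eno3 stood at 1.65 (adjusted p = 0.0634) and Klhl30 at 0.91 (adjusted p = 0.322).

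The number of calls in knockout turned on single libraries. Without young replicate 3, 74 genes passed (50 higher, 24 lower), and without old replicate 1, 102 passed (50 higher, 52 lower), 20 of them the same genes. The counts were 2 without young replicate 1, neither of them Eno3 nor Klhl30, 3 without old replicate 3, and 0 without young replicate 2 or old replicate 2, where 1622 and 706 genes had an unadjusted p under 0.05 in edgeR. DESeq2 on all libraries called 136 genes, 66 higher and 70 lower, and limma-voom 13, 8 higher and 5 lower; Eno3 and Klhl30 were among the calls of both.

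**Figure D1:**
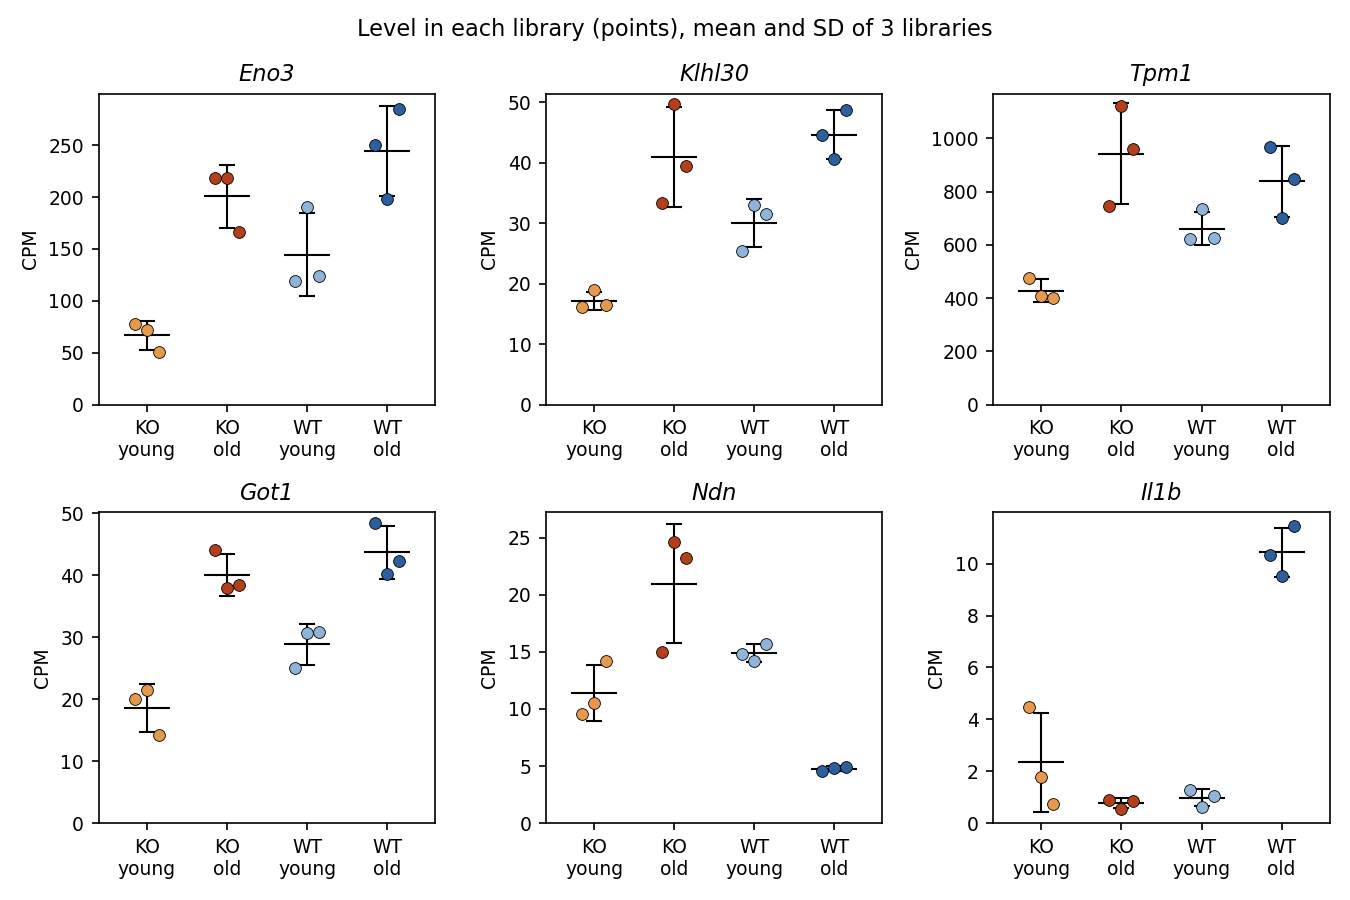
CPM (vertical axis from 0) of 6 genes in young and old libraries of Hoxa9 knockout (KO) and wild type (WT). Points are libraries in replicate order, wide bars the mean of 3 libraries and error bars the SD. Eno3 and Klhl30 separated the ages in knockout, with Eno3 at 50.9 to 77.6 CPM in young and 166 to 219 CPM in old; Ndn and Il1b had age differences of opposite sign in the 2 genotypes.

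The 250 bases before the start of Eno3 are printed because Eno3 is 1 of the 2 genes called; the promoter of Klhl30 is not shown. The sequence is from RefSeq on GRCm38.p6, chr11:70656926-70657175, plus strand. This is another build than the mm9 build of the deposited counts.
Eno3 promoter: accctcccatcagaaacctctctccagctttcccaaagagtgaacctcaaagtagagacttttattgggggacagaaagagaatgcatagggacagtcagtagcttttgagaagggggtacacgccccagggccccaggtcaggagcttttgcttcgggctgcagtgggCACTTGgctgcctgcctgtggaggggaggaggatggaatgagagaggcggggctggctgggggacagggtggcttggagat
Capitals mark the only E box, CANNTG on both strands, which begins 81 bases before the start. E boxes are read by myogenic regulatory factors such as MyoD. A match of this kind was found in 66.2% of 32851 mouse promoters of the same length, so it is common and describes the sequence only. No match to the MEF2 motif was found in this window, and 2.92% of promoters held such a match.

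Below the 2 called genes, those with the smallest p-values in each direction are described as values, since none passed. They were taken only from genes with mean log2 CPM over 1 in knockout and no overlap between its old and young libraries. Tpm1, an actin-binding tropomyosin, stood at 477, 407 and 400 CPM in young and 747, 1122 and 961 CPM in old knockout (log2 fold change 1.14, adjusted p = 0.0546). Got1, the cytosolic aspartate aminotransferase of the malate-aspartate shuttle, stood at 20.1, 21.4 and 14.2 CPM in young and 44.0, 37.9 and 38.4 CPM in old (1.09, adjusted p = 0.0546). Wdfy1, a WD repeat and FYVE domain protein, stood at 34.5, 19.0 and 14.2 CPM in young and near 70 CPM in every old library (69.6, 72.2 and 72.3; 1.63, adjusted p = 0.0558, edgeR). For all 3, the lowest old library lay above the highest young library, which the choice of these genes required.

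On the lower side, Ctnna2, an alpha-catenin of cell junctions, stood at 9.62, 10.01 and 5.71 CPM in young and 2.25, 2.07 and 1.16 CPM in old knockout (-2.15). Igfbp3, a binding protein of insulin-like growth factors, stood at 326, 494 and 309 CPM in young and 155, 170 and 205 CPM in old (-1.10). Gpc3, a heparan sulphate proteoglycan of the cell surface, stood at 78.3, 95.6 and 107 CPM in young and 33.2, 28.6 and 53.2 CPM in old (-1.31). The groups did not overlap for any of them, which the choice required, and the adjusted p was 0.0652 for each in edgeR. Ephb1, an ephrin receptor (-0.97), and Pik3ip1, an inhibitor of phosphatidylinositol 3-kinase (-0.89), had the same adjusted p.

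In wild type, which shares no library with this comparison, Ctnna2 (-2.24), Igfbp3 (-1.44), Ephb1 (-0.87) and Gpc3 (-2.62) fell past the threshold with age. Pik3ip1 had the opposite sign there (0.30, adjusted p = 0.395, edgeR), with 18.5, 17.0 and 18.1 CPM in young and 23.3, 23.7 and 19.1 CPM in old wild type. In knockout it stood at 27.8, 29.8 and 24.1 CPM in young and 15.9, 13.3 and 15.4 CPM in old. The difference between its changes in the 2 genotypes was -1.18 and did not pass (adjusted p = 0.235, edgeR).

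**Figure D2:**
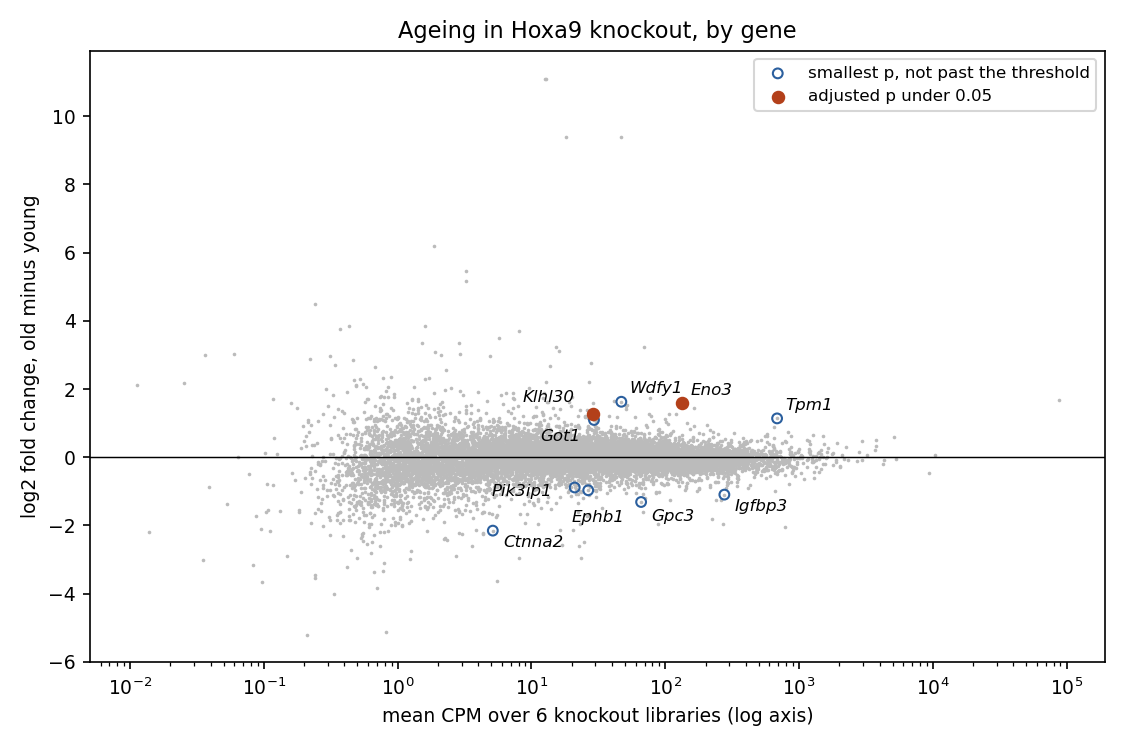
Log2 fold change (old minus young knockout, vertical axis) against mean CPM over the 6 knockout libraries (log axis), with 1 grey point per tested gene that had reads in knockout. Filled points mark the 2 genes past the threshold, Eno3 (1.58) and Klhl30 (1.26), and open circles the genes with the next smallest p-values, none past it; the 4 points above 8 are Y-linked genes (Ddx3y, Eif2s3y, Kdm5d and Uty).

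The precision of this comparison depended on level. The median standard error was 0.216 on the log2 scale, which gives a 95% interval of ± 0.465 (edgeR, n = 3 per age). The spread behind it was estimated over all 12 libraries. Wild-type libraries had less spread than young knockout (median SD 0.156 and 0.201 against 0.269), so these intervals may be too narrow for knockout. For genes above 100 CPM the interval half-width was 0.331, and 91.7% of 2484 such genes had an interval that lay within a 2-fold change. Between 1 and 10 CPM the half-width was 0.867 and the share 34.3% of 3665 genes. Over all levels the interval stayed within a 2-fold change for 9115 of 13532 genes (67.4%). For the remaining genes a 2-fold change with age was not excluded at this depth.

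Several gene lists leaned to 1 side without members past the threshold, among them the lists of proliferation. Of 49 cell cycle genes, 0 passed, 45 had positive values and the median log2 fold change was 0.51, against -0.01 over all genes. The unadjusted p was under 0.05 for 29 members, all higher in old, and 18 did not overlap between the ages, against 5.42% and 6.37% of all genes in that direction. The mean log2 CPM of the list was 4.91, 5.22 and 4.71 in young and 5.27, 5.71 and 5.37 in old knockout, so the old libraries lay above the young, narrowly for young replicate 2 and old replicate 1. Mki67, a proliferation marker, stood at 325, 403 and 269 CPM in young and 383, 506 and 412 CPM in old (0.38, adjusted p = 0.595, edgeR). Top2a, the topoisomerase of replicating cells, stood at 257, 438 and 215 CPM in young and 383, 460 and 392 CPM in old (0.44). For both, young replicate 2 lay among the old libraries. Rrm2, the ribonucleotide reductase subunit of S phase, was chosen here after its values were seen: it stood at 51.7, 58.9 and 46.0 CPM in young and 89.4, 125 and 114 CPM in old (1.06, adjusted p = 0.0669, edgeR). In wild type the list's median was 0.01. Without old replicate 2 the knockout median was 0.34, and without both libraries high in Y-linked reads it was 0.22.

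All 55 tested replication-dependent histone genes, whose transcripts accumulate in S phase, had positive values (median 0.53), 19 at an unadjusted p under 0.05 and 15 without overlap (against 5.42% and 6.37% of all genes in that direction); 0 passed. These genes share near-identical sequence. Reads that align to several places were set apart in the counting, so some reads of these genes may be missing. Hist1h1c, a linker histone, stood at 190, 228 and 211 CPM in young and 278, 257 and 275 CPM in old knockout (0.36, adjusted p = 0.496, edgeR). Hist1h4d overlapped between the ages, at 153, 231 and 186 CPM in young and 220, 281 and 245 CPM in old. The list means of 4.28, 5.01 and 4.37 in young and 4.96, 5.36 and 5 in old overlapped through young replicate 2, without which the median was 0.81. In wild type the median was -0.19. Cdkn1c, the cell cycle inhibitor p57, is on the differentiation list and was chosen after its values were seen; it stood at 1150, 1170 and 893 CPM in young and 614, 568 and 681 CPM in old knockout (-0.79, adjusted p = 0.0658, edgeR), and fell past the threshold in wild type (-0.92).

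Nuclear-encoded genes of the respiratory chain leaned upward: 63 of 71 had positive values, 20 did not overlap and 10 had an unadjusted p under 0.05 (6.37% and 5.42% of all genes in that direction), with a median of 0.23 and 0 past the threshold. Atp5b, a catalytic subunit of ATP synthase, stood at 1288, 1647 and 1588 CPM in young and 1718, 1872 and 1822 CPM in old (0.26, adjusted p = 0.62, edgeR), so the ages did not overlap, narrowly. Offsets for GC content and gene length brought the list's median to 0.09, without young replicate 1 it was 0.14, and without both libraries high in Y-linked reads 0.10. Of 26 glycolysis genes, Eno3 alone passed and 18 had positive values (median 0.18). Without old replicate 1 that median was -0.08, against 0.04 to 0.29 without any other single library. Housekeeping genes had 11 positive values of 17 (median 0.15) and mitochondrial tRNA synthetases 14 of 17 (median 0.16), with 0 past the threshold in either list. Of the 17 housekeeping genes 5 did not overlap and 4 had an unadjusted p under 0.05, all higher in old. Such members were thus not particular to the respiratory chain list. Actb, the cytoskeletal beta-actin, stood at 0.52 (adjusted p = 0.348, edgeR).

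The mature myofibre list was carried by a single library. Of its 28 tested genes, Eno3 passed, 20 had positive values and the median was 0.43. The list's mean log2 CPM was 5.88 in old replicate 1, against 3.55 and 4.11 in old replicates 2 and 3 and 3.65 to 4.39 in young. Myh4, the fast IIb myosin heavy chain, chosen here after its values were seen, stood at 308 CPM in old replicate 1, 16.0 and 51.1 CPM in the other old libraries and 7.95 to 21.1 CPM in young. Without old replicate 1 the list's median was -0.30, against 0.31 to 0.74 without any other single library. Eno3 does not share that pattern: it stood at 218 and 166 CPM in old replicates 2 and 3, and its log2 fold change without old replicate 1 was 1.51 (adjusted p = 0.0178, edgeR).

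Satellite cell identity and quiescence genes leaned downward, with 24 of 31 negative values, a median of -0.23 and 0 past the threshold. Pax7 differed by -0.20 ± 0.14 (SE; adjusted p = 0.666, edgeR), with a 95% interval of -0.50 to 0.09; in wild type it fell by 0.72 (adjusted p = 0.0271). The difference between these changes was 0.52 and did not pass (adjusted p = 0.429, edgeR). The 2 most abundant members overlapped widely between the ages: Sdc4, a cell surface proteoglycan, ranged over 599 to 2963 CPM in young and 867 to 1613 CPM in old, and the receptor Notch3 over 1165 to 1486 and 1006 to 1458 CPM. Young replicate 3 held the highest list mean (7.85 against 6.82 to 7.43), and without it the median was -0.04. It was -0.09 without old replicate 2, -0.05 without both old libraries high in Y-linked reads, and -0.40 to -0.26 without any other single library.

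Of 29 Notch pathway genes, 24 had negative values (median -0.13), 3 at an unadjusted p under 0.05 (4.3% of all genes in that direction) and 0 past the threshold. The list's mean log2 CPM was 5.48, 5.49 and 5.69 in young and 5.46, 5.27 and 5.35 in old knockout, without overlap but with a gap of 0.02. Notch2 stood at 747 to 887 CPM in young and 750 to 789 CPM in old (-0.09). Trithorax and Polycomb genes, which set active and repressive histone marks, had 35 negative values of 47 (median -0.15, 0 past the threshold). This list's means did not overlap either, at 5.69 to 5.83 in young and 5.57 to 5.68 in old knockout. Without overlap, 5 of its genes were lower and 1 higher in old (5.22% and 6.37% of all genes). Of all lists, the means of 3 lay above the young in old, 2 below, and 28 overlapped. Ash1l, a histone H3 methyltransferase, stood at 416, 315 and 397 CPM in young and 295, 289 and 295 CPM in old (-0.36, adjusted p = 0.59, edgeR). Kdm6a, a histone demethylase gene on the X chromosome that escapes inactivation, was chosen after its values were seen: it stood at 157, 167 and 159 CPM in young, 128 CPM in old replicate 1 and 69.3 and 74.4 CPM in old replicates 2 and 3, the libraries high in Y-linked reads. The part of sex in that difference was not tested.

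Immediate early genes stood highest in young replicate 3. In their list 33 of 42 values were negative (median -0.25), yet without young replicate 3 the median was 0.34, against -0.50 to -0.14 without any other single library. Fos, an AP-1 subunit, stood at 459, 743 and 1301 CPM in young and 946, 470 and 826 CPM in old knockout. The chaperone list had a median of -0.07, with Hspa5, the chaperone of the endoplasmic reticulum, at 1558 to 3055 CPM in young and 1648 to 2020 CPM in old. Hsph1, a cochaperone of Hsp70 chosen after its values were seen, separated the ages without that library too, at 287, 288 and 528 CPM in young and 186, 151 and 124 CPM in old (-1.26, adjusted p = 0.0658, edgeR).

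Matrix genes had no common sign with age in knockout. Of 50 interstitial matrix genes, 29 had positive and 21 negative values (median 0.07, 0 past the threshold), whereas in wild type the median was -0.78 with 11 past the threshold and lower (0.805% of all genes). Col3a1, a fibrillar collagen, stood at 3128, 3630 and 2734 CPM in young and 3006, 3384 and 3481 CPM in old knockout (0.06, 95% interval -0.26 to 0.38), and fell by 0.74 in wild type; the difference of 0.80 did not pass (adjusted p = 0.296, edgeR). Col1a2 ranged over 2505 to 3892 CPM in young and 2584 to 5674 CPM in old. Of 28 basement membrane genes 0 passed, 18 had negative values and the median was -0.14, against -0.41 in wild type. Sparc, a collagen-binding protein, stood at 1591 to 1785 CPM in young and 1554 to 2095 CPM in old. The medians were also near 0 for the Wnt (-0.05, 55 genes), TGF-beta and BMP (-0.10, 56 genes), JAK-STAT (-0.14, 54 genes), interferon-stimulated (0.04, 40 genes) and senescence and secretory (0.04, 55 genes) lists and for myogenic differentiation (-0.09, 42 genes), with 0 members past the threshold in any of them. They were -0.14 for 10 genes of the Hoxa cluster and -0.20 for 11 genes of the other Hox clusters.

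**Figure D3:**
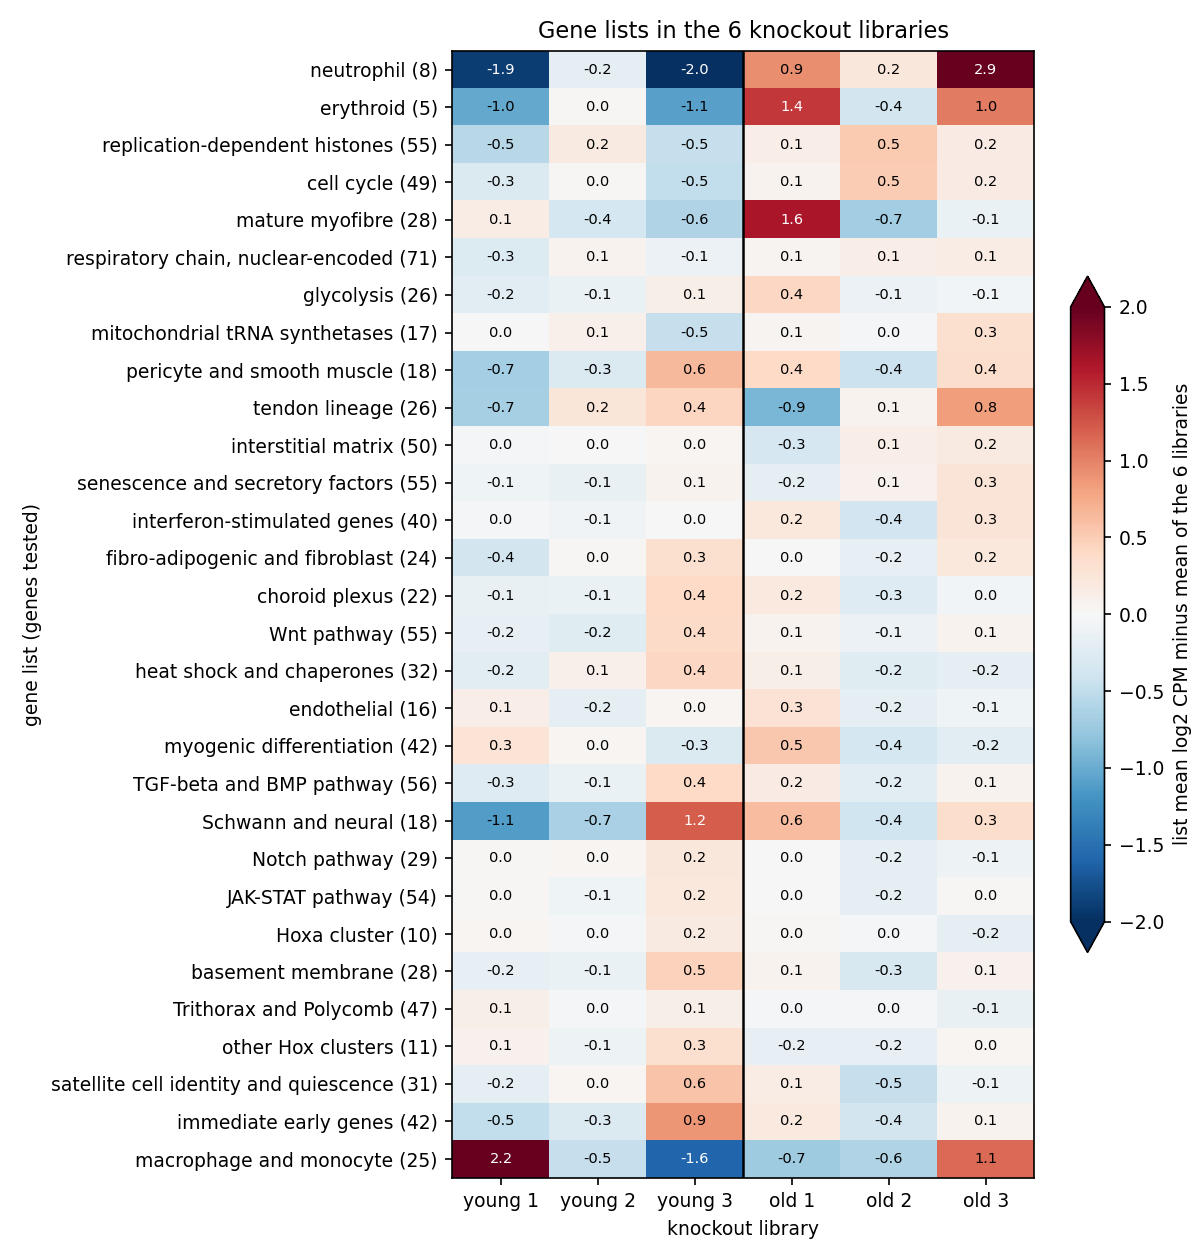
Mean log2 CPM of each gene list in the 6 knockout libraries (columns, young left of the line, old right), as the difference from the list's mean over those libraries (colour and printed value). Rows are lists, ordered by their median log2 fold change, with the number of genes tested in brackets; colours beyond 2 are not graded further. The cell cycle list is higher in all old than in all young libraries, the mature myofibre list is high in old replicate 1 alone, and the immediate early list is high in young replicate 3.

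Markers of other cell types also differed between these libraries, and in bulk RNA fewer cells of a type and less RNA per cell cannot be told apart. Of 14 neutrophil genes counted, 8 passed the filter on low counts. A gene near the floor can pass it through the group where it is high, so a common sign carries little weight. All 8 had positive values (median 3.43), 6 of them at an unadjusted p under 0.05 (5.42% of all genes in that direction) and 0 past the threshold. The summed level of the 14 was 12.7 to 23.5 CPM in young and 34.0, 43.4 and 146 CPM in old, highest in old replicate 3. S100a9 stood at 0.0829, 3.08 and 0 CPM in young and 9.46, 1.87 and 34.0 CPM in old, against a level of 0.201 to 0.872 CPM for 3 reads in a knockout library. Macrophage and monocyte markers went the other way in 23 of 25 genes (median -1.26, 0 past the threshold), and this followed young replicate 1, which summed to 302 CPM against 36.4 to 151 CPM in the other 5. Without that library the median was 0.72, against -2.16 to -0.74 without any other. In wild type the same markers summed to 43.9 to 83.2 CPM in young and 248 to 283 CPM in old. All 5 tested erythroid genes, of 11 counted, had positive values (median 1.21, 0 past the threshold). Hbb-b1, a beta globin, stood at 28.8, 58.3 and 54.9 CPM in young and 167, 36.6 and 123 CPM in old. Reads that align to more than 1 globin gene may be missing from these values. Endothelial (-0.08), fibroblast (0.01), pericyte (0.13), Schwann and neural (-0.12), tendon (0.09) and choroid plexus (0.00) lists had medians near 0 with 0 members past the threshold. Young replicate 3 held the highest mean log2 CPM of the Schwann and neural list (5.94 against 3.6 to 5.34 in the others) and of the pericyte list (7.17 against 5.85 to 6.92). Without it Prx, Mbp and Pmp22 of the former and Myl9 and Tagln of the latter passed, all higher in old (edgeR). In that fit 50 of 14090 genes passed in that direction. With all libraries Prx stood at -0.76, Mbp at -0.52 and Pmp22 at 0.06, and Myl9 at 0.83 and Tagln at 0.59. Of the choroid plexus genes 2, Ttr among them, had 0 reads in all knockout libraries. Of the lymphocyte markers only Lck was tested (-0.29), and the list summed to at most 3.48 CPM. Whether the neutrophil, macrophage or erythroid content contributed to the shifts in the other lists was not tested.

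The 144 genes that changed with age in wild type (1.06%) were then followed in knockout. At an unadjusted p under 0.05, 916 genes were higher (6.77%) and 1002 lower (7.4%) in old wild type. Of the 109 that fell (0.805%), 86 also had negative values in knockout (78.9%, against 51% of all genes), with a median of -0.33 there and -1.02 in wild type. Of the 35 that rose (0.258%), 19 had positive values in knockout (54.3%, against 48.9% of all genes), with a median of 0.06 there and 1.30 in wild type. None of the 144 passed in knockout. The wild-type medians are raised by the choice of these genes on the wild-type values. The spread was also larger in knockout, so a missing call does not show that these genes kept their level. Col4a6, a basement membrane collagen chosen after its values were seen, had like values in both genotypes (1.32 in knockout and 1.56 in wild type), with 4.73, 5.65 and 10.9 CPM in young and 18.3, 15.5 and 17.1 CPM in old knockout.

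**Figure D4:**
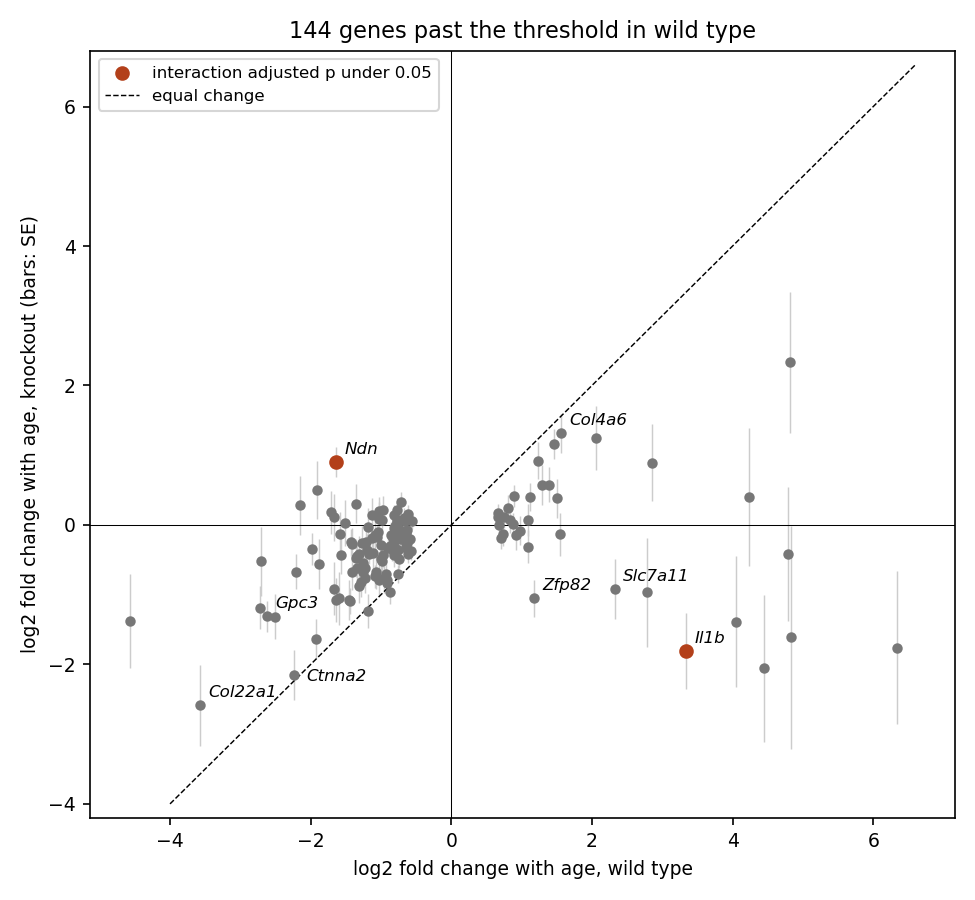
Log2 fold change with age in knockout (vertical axis, bars are the SE) against wild type (horizontal axis) for the 144 genes past the threshold in wild type. Points on the dashed line have equal values in both genotypes. Of the 109 genes that fell in wild type, 86 lie below 0 in knockout; Ndn and Il1b, filled, are the 2 whose difference between genotypes passed.

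Tested directly, the age effect differed between the genotypes for 2 of 13540 genes (0.0148%), Ndn in the positive and Il1b in the negative direction (0.00739% each). At an unadjusted p under 0.05 it differed for 1316 genes (9.72%), 672 positive (4.96%) and 644 negative (4.76%). Without young knockout replicate 3 the test called 116 genes and without old knockout replicate 1 it called 33. Ndn encodes necdin, an imprinted growth regulator. It stood at 9.53, 10.5 and 14.2 CPM in young and 15.02, 24.6 and 23.2 CPM in old knockout, and at 14.8, 14.2 and 15.7 CPM in young and 4.55, 4.87 and 4.90 CPM in old wild type. The ages did not overlap in either genotype, and they separated in opposite directions. In knockout the gap was narrow, with 15.02 CPM in old replicate 1 against 14.2 CPM in young replicate 3. The 2 higher old values were in the libraries high in Y-linked reads. Over 21 alternatives the age effect in knockout ranged from 0.37 to 1.08. The age effect was 0.90 ± 0.21 in knockout, where it did not pass (adjusted p = 0.205), and -1.64 ± 0.22 in wild type, and their difference was 2.54 ± 0.30 (adjusted p = 0.0131, edgeR).

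Il1b, a pro-inflammatory cytokine that myeloid cells express strongly, falls outside the level at which genes were named and was chosen after its values were seen. It stood at 4.48, 1.80 and 0.745 CPM in young and 0.901, 0.535 and 0.872 CPM in old knockout, where the groups overlapped. In wild type it stood at 1.26, 0.617 and 1.04 CPM in young and 10.3, 9.54 and 11.4 CPM in old, without overlap. The age effects were -1.81 ± 0.54 (adjusted p = 0.273) and 3.33 ± 0.47, and their difference was -5.15 ± 0.71 (adjusted p = 0.0339, edgeR). The knockout values rest on few reads, since 3 reads make 0.745 CPM in young replicate 3 and 0.872 CPM in old replicate 3. Macrophage and monocyte markers had medians of -1.26 in knockout and 2.11 in wild type, and their part in the difference was not tested. Both calls lie near the threshold: without old knockout replicate 2 or any 1 of the 6 wild-type libraries neither passed, with adjusted p-values of 0.0518 to 0.0938 for Ndn and 0.107 to 0.192 for Il1b. Without old knockout replicate 3 Il1b did not pass either (adjusted p = 0.0846), and without both old knockout libraries high in Y-linked reads the differences were 2.03 (adjusted p = 0.118) for Ndn and -4.86 (adjusted p = 0.28) for Il1b.

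Further genes with the smallest interaction p-values did not pass. Matn2, a matrilin of the pericellular matrix, stood at 224, 269 and 263 CPM in young and 374, 293 and 346 CPM in old knockout (0.42), and had a value of -0.54 in wild type. Vasn, a surface protein that binds TGF-beta, stood at 100.2, 109 and 119 CPM in young and 156, 162 and 155 CPM in old knockout (0.53, against -0.25 in wild type), and Adamts4, a matrix protease, had values of 0.32 and -0.72. Tril, a Toll-like receptor adaptor, was lower in old libraries of both genotypes (-0.34 and -1.99). With the opposite order, Zfp82, a zinc finger gene, stood at 12.1, 12.7 and 7.70 CPM in young and 3.61, 5.96 and 6.39 CPM in old knockout (-1.05, against 1.18 in wild type). Slc7a11, the cystine transporter, had values of -0.92 and 2.32, Arrdc3, an arrestin domain protein, -0.71 and 0.76, and G530011O06Rik -1.34 and 0.58. Their adjusted interaction p-values ranged from 0.119 (Zfp82) to 0.264 (Vasn and Adamts4) in edgeR, so these differences are given as values.

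**Figure D5:**
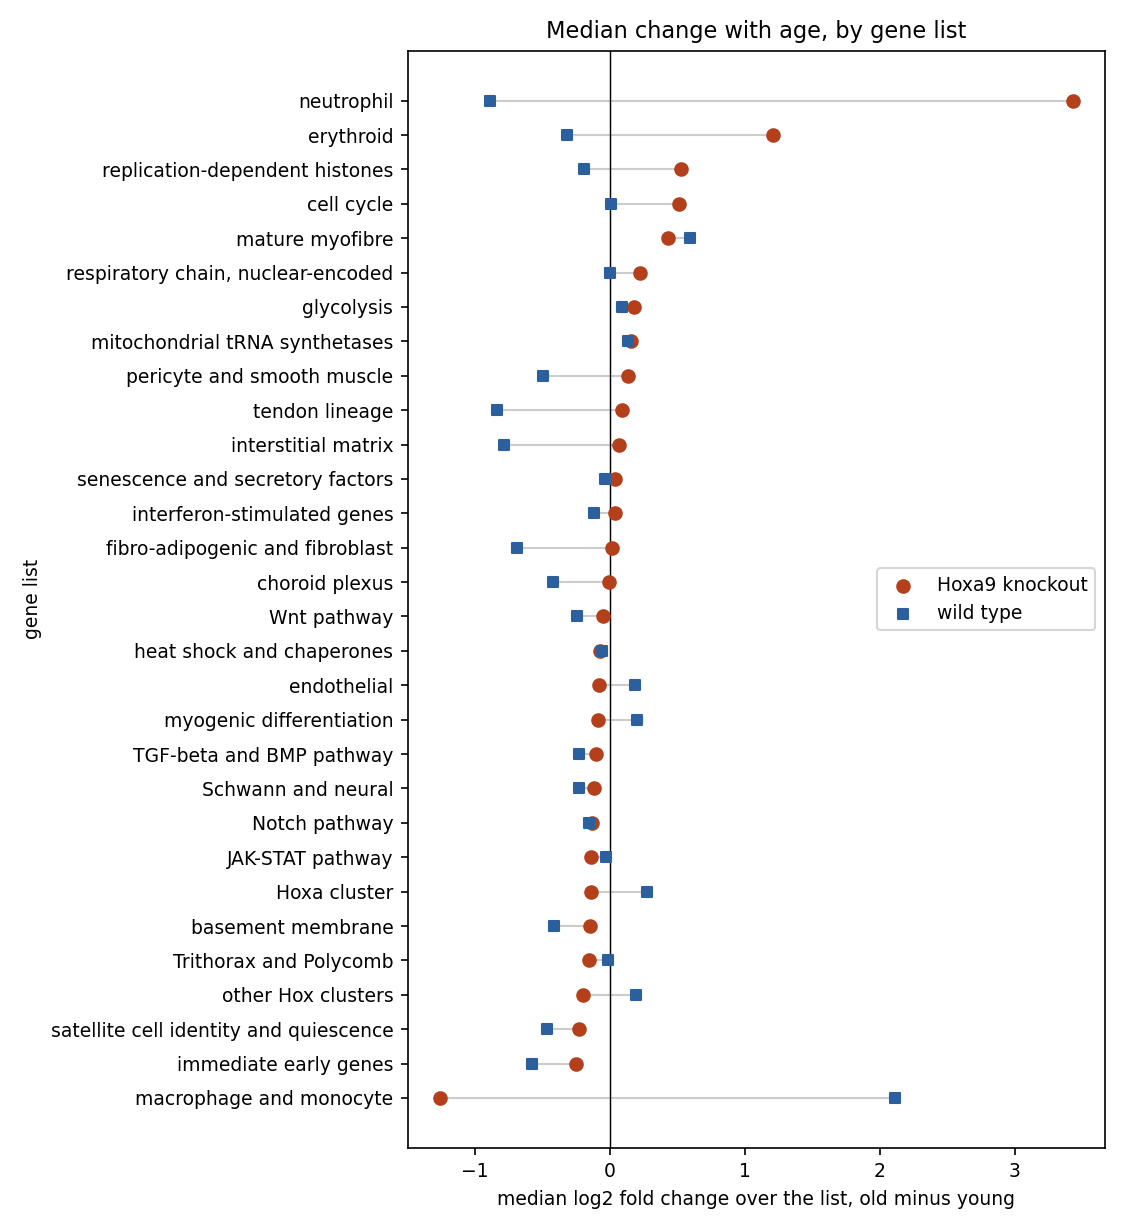
Median log2 fold change with age (horizontal axis, old minus young) over each gene list in Hoxa9 knockout (circles) and wild type (squares), for lists with more than 1 tested gene; the housekeeping list and the Y-linked and X inactivation list are not drawn. The genotypes share no library. The widest gaps among the lists drawn are in neutrophil (3.43 against -0.89) and macrophage (-1.26 against 2.11) markers; the cell cycle list stands at 0.51 and 0.01 and the interstitial matrix list at 0.07 and -0.78.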

How the data were processed

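The authors deposited 1 file of raw read counts per gene symbol for each library. The submitters' processing notes name TopHat, HTSeq, DESeq2 and the mm9 build, without versions; per the labels' protocols, libraries were stranded and made from ribosome-depleted total RNA. The strand mode of counting was not given in the sources used here, so overlapping and antisense genes may share reads. Lines that name no gene stayed out; reads outside genes were 32.2% to 70.8% of uniquely aligned reads in knockout. Of 22310 symbols, 13540 passed filterByExpr. After trimmed-mean scaling, edgeR 4.0.16 (R 4.3.3) fitted the counts by robust quasi-likelihood, with 1 mean per group over all 12 libraries. Contrasts were old minus young in knockout, the same in wild type, and their difference. P-values were adjusted by the Benjamini-Hochberg method across every tested gene. A standard error is the log2 fold change divided by the square root of F. The code was tested on simulated data.

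Members, gene lists and the naming rule were chosen with earlier results of these data known. Named were Hoxa9; up to 12 genes per direction past the threshold with mean log2 CPM over 1 in knockout and no overlap, filled to 5 by the smallest p; for the interaction 5 per direction; genes that mark a library apart; and of each list up to 4 members past the threshold, or else the 2 most abundant. Lists were described by counts and medians. Alternatives were DESeq2 1.42.0, limma-voom 3.58.1 with and without sample weights, other scaling, filters and fold minimum, a replicate block, GC content and length offsets (another build; 92.4% of symbols matched), the knockout alone, and leaving out libraries. Between knockout libraries, Spearman's rho over genes was 0.949 to 0.985 within an age and 0.948 to 0.981 across ages.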

Additional observations from a re-analysis of the deposited data

Results flagged for a closer look

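The age effect differed between the genotypes, by a test of the difference itself, for 2 genes. For Ndn the change with age in knockout minus that in wild type was 2.54 on the log2 scale (adjusted p = 0.0131, edgeR's quasi-likelihood test). All 3 old knockout libraries lay above all young ones, narrowly for old replicate 1, and all 3 old wild-type libraries lay below. For Il1b it was -5.15 (adjusted p = 0.0339, edgeR), with all 3 old wild-type libraries above all young ones and overlapping ages in knockout.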

How the results depend on the processing

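For ageing in knockout (2 genes), DESeq2 called 136, limma-voom 13, limma-voom with sample weights 21, a fit with no filter on low counts 38 and offsets for GC content and length 21. Upper quartile factors, a fold minimum of 1.5, the 6 knockout libraries alone and leaving out the 2 libraries with the largest Lars2 share each gave 0 (edgeR; 1301, 266, 793 and 1219 at an unadjusted p under 0.05). Without both old libraries high in Y-linked reads 15 passed, 8 of them on the mature myofibre list, and leaving out 1 library gave 0 to 102. Library size alone gave 2 other genes, both lower. For the interaction (2 genes), DESeq2 called 58, limma-voom 1, sample weights 4, library size alone 4, no filter 6 and the fit without the largest Lars2 shares 1. Single libraries left out gave 0 to 116. For ageing in wild type (144 genes; alternatives chosen after seeing the data), the counts were 462 (DESeq2), 351 (limma-voom), 1003 (sample weights), 83 (library size alone) and 6 (fold minimum), and 6 to 73 without 1 library. The causes were not tested.

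A replicate block gave 0 genes in knockout (1121 at an unadjusted p under 0.05, edgeR) and 79 in wild type. Libraries share only a number: deviations of same-numbered knockout libraries correlated at -0.304, 0.194 and 0.098.

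Eno3 passed in 11 of 21 alternatives (1.38 to 1.74) and Klhl30 in 10 of 21 (0.91 to 1.38). Eno3, Klhl30 and the interaction values of Ndn and Il1b kept their sign in every alternative run. Genes given as values without passing, such as Fos and Col3a1, changed sign in some, and list medians, which carry no test, changed sign without 1 library in several lists: mature myofibre (-0.30) and glycolysis (-0.08) without old replicate 1, immediate early (0.34) without young replicate 3 and macrophage (0.72) without young replicate 1 are examples. Of 692 list medians under an alternative, 28 moved by more than the spread between replicates. That spread is the SD of the list mean in these same knockout libraries, so a library that stands apart also widens it. Some alternatives, such as the fold minimum, leave the fold changes as they were. The count therefore does not measure how stable the medians are. Depth limits genes under 1 CPM: 0.23% of 869 had an interval within a 2-fold change.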
